A study of Arabidopsis thaliana with 75 samples.

Results

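The 200 Arabidopsis genes described here were low 2h and 4h after a leaf was cut and had returned by 5 days. They were chosen from 32833 genes in the count table by a score on wild-type (WT) leaves. The score is the lower of the 0h and 5D levels minus the higher of the 2h and 4h levels, each level being log2(mean CPM + 1) over 3 replicates. CPM is a gene's count divided by the library total, times 1000000. The 200 genes with the highest score were kept and then followed in all 3 genotypes. Because the WT libraries at 0h, 2h, 4h and 5D chose the genes, their values at those times are given as a description and carry no test.

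The leaves were the 8th leaf of 4-week-old plants, cut with a steel blade, and RNA was read as poly(A)-selected sequencing libraries. WT leaves were taken 0, 1, 2, 4, 6, 12 and 18 hours (h) and 1, 2, 3, 4 and 5 days (D) after the cut. A line labelled gpat4 gpat8, named for a pair of acyltransferase genes of cutin synthesis, was taken at 0h, 2h and 4h, at 12h and on days 1, 2 and 3. A line labelled rbohE, named for an NADPH oxidase gene, was taken at 0h, 2h and 4h and on days 1, 3 and 5. There are 3 libraries in each of the 25 groups. The alleles are not given in the sources used here, no uncut leaves were sampled at the later times, and nothing states that replicates came from separate plants, so p-values measure only the spread between these libraries.

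Library totals ran from 46045188 to 67376782 deposited counts, with a median of 61143105. AT1G19230, known as RBOHE, stood at 51.2 ± 3.68 CPM (SD, n = 3) in WT at 3D and at 2.99 ± 0.106 CPM in rbohE. GPAT4 was lower in the line labelled gpat4 gpat8, at 68.7 ± 2.39 CPM against 202 ± 4.39 CPM in WT at 2h (SD, n = 3). GPAT8 went against the label, at 28 ± 2.26 CPM against 14.2 ± 3.25 CPM at 2h, and was higher in the line labelled gpat4 gpat8 at every shared time. The line is therefore called gpat4 gpat8-labelled throughout. Its libraries at 0h, 12h and 1D, 9 in 3 groups, carry an extra M in their labels, whose meaning is not given, and plastid-encoded genes took 0.943 to 2.57% of their counts against 0.212 to 0.878% in the other 66.

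A cut leaf makes jasmonate within minutes, and jasmonate switches transcription from growth and photosynthesis towards defence. Genes for chloroplast proteins, sugar metabolism and cell expansion are commonly reduced at this stage, and the leaf later seals the cut edge. Anthocyanins are red flavonoid pigments made in leaf cells by a chain of enzymes that a MYB, bHLH and WD40 protein complex switches on. Many leaf genes also follow the circadian clock, in which CCA1 and LHY peak near dawn and TOC1 near dusk.

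The word silenced in the working name of these genes says more than the data. At WT 2h their mean CPM was 14.8% of the 0h value in the median gene, with a range of 0 to 36.5%. Of the 200 genes, 174 still had a mean of at least 1 CPM at 2h. Only GASA6, a gibberellin-regulated peptide gene, was at or under 3 fragments in each WT library at 2h and 4h. In 194 of the 200, each WT library at 0h and 5D lay above each library at 2h and 4h, and in 76 the 5D mean was at or above the 0h mean.

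The promoters of 5 genes are shown for 2 kinds of short sequence that clock and light regulators bind. Each run is the 250 bases upstream of the annotated gene start, on the strand of the gene, from RefSeq TAIR10.1. The evening element is AAAATATCT and the G-box is CACGTG, both searched on both strands, and the matches are in capitals. ANTR2, a chloroplast phosphate and ascorbate transporter (chr4:166358-166607, minus strand), and PGM, the plastid phosphoglucomutase of starch synthesis (chr5:21068328-21068577, minus strand), hold the evening element on the opposite strand, 89 and 202 bases before the start. AT2G47010 (chr2:19316876-19317125, plus strand) holds a G-box 229 bases before the start. UF3GT, an anthocyanin glycosyltransferase (chr5:21938397-21938646, minus strand), holds 2, at 171 and 128 bases. DFR, dihydroflavonol reductase, an enzyme of anthocyanin synthesis (chr5:17166033-17166282, minus strand), holds 1 at 14 bases and was added after its values were seen.
ANTR2: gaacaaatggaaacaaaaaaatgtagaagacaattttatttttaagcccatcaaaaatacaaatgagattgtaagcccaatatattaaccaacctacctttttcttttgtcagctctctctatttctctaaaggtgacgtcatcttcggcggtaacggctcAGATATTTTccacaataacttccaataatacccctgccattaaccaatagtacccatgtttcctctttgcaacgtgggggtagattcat
PGM: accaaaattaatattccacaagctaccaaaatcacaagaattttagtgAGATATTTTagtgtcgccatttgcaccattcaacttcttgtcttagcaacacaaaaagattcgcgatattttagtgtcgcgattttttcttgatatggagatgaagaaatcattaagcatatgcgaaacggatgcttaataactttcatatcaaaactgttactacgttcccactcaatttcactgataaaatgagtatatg
AT2G47010: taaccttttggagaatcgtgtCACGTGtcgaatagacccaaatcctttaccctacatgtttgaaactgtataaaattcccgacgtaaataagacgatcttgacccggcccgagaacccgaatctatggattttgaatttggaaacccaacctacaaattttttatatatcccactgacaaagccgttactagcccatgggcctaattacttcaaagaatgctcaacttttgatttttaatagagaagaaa
UF3GT: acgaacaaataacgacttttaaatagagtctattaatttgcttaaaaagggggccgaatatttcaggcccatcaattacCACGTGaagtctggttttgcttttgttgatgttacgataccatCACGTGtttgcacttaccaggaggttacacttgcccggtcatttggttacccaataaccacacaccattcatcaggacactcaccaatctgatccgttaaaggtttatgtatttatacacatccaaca
DFR: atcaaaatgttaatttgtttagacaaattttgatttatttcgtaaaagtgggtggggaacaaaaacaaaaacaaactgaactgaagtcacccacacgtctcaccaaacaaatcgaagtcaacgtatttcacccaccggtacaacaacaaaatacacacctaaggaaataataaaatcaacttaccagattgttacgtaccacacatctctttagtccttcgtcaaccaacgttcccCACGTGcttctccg

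An evening element stood in 5 of the 200 promoters (2.5%) and in 2.23% of 32546 promoters of genes in the count table. A G-box stood in 20 (10%) against 5.9%, and in 4 of 13 anthocyanin and flavonol genes (30.8%). The CCA1 binding site AAAAATCT stood in 21 (10.5%) against 6.38%. The telo-box AAACCCTA, frequent in genes of translation, stood in 1 (0.5%) against 4.61%. The W-box TTGACC (11.5% against 11.8%), the I-box GATAAG (14% against 12.4%), the site II letters TGGGCC (15% against 12.5%), CACATG (13% against 11.2%) and the RY core CATGCA (11% against 8.77%) lay nearer to the share in all promoters. All 200 genes passed the filter for testing, and 23280 of the promoters belong to genes tested. Among those the shares were 2.41% for the evening element, 6.99% for the G-box, 6.44% for the CCA1 binding site and 3.87% for the telo-box. They were 12.2% for the W-box, 12.4% for the I-box, 15.2% for site II, 11% for CACATG and 7.75% for the RY core. These are matches of letters in a window, described without a test.

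In annotation, 56 of the 200 genes (28%) carry a plastid or chloroplast word in their name or product, against 12.4% of the genes tested. The 10 highest scores were those of RABE1b, the plastid elongation factor Tu (2.93), AT4G16260, a glycosyl hydrolase (2.65), AT1G70250 (2.605), AT3G22235 (2.45), the noncoding AT2G04755 (2.44), CYP71B24 (2.41), CYP705A19 (2.33), MYB111, a regulator of flavonol synthesis (2.32), AT4G14090, an anthocyanin glucosyltransferase (2.31), and AT5G03140 (2.25). AT3G05190, annotated as an aminotransferase-like enzyme (2.04), and AT4G16400 (2.03) ranked 19 and 20. At the boundary, AT3G05345 and GDC1 scored 1.3909 and 1.3894 and were kept, and PDE327 and ATKDSA2 scored 1.3892 and 1.3890 and were not.

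In WT the median of the 200 genes fell from 5.71 at 0h to 4.38 at 1h and 3.09 at 2h, on the log2(mean CPM + 1) scale. It then stood at 3.66 at 4h, 4.51 at 6h and 5.14 at 12h. The 18h median was 5.04 and the medians of days 1 to 5 were 4.97, 5.27, 5.52, 5.74 and 5.60. The drop was thus under way within the first hour, was deepest at 2h, and had largely been made up by 12h, with a shallow dip up to 1D. The 0h level was the highest WT level for 91 genes, that of 4D for 38, 5D for 19, 3D for 16, 12h for 15 and 2D for 12.

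**Figure D1:**
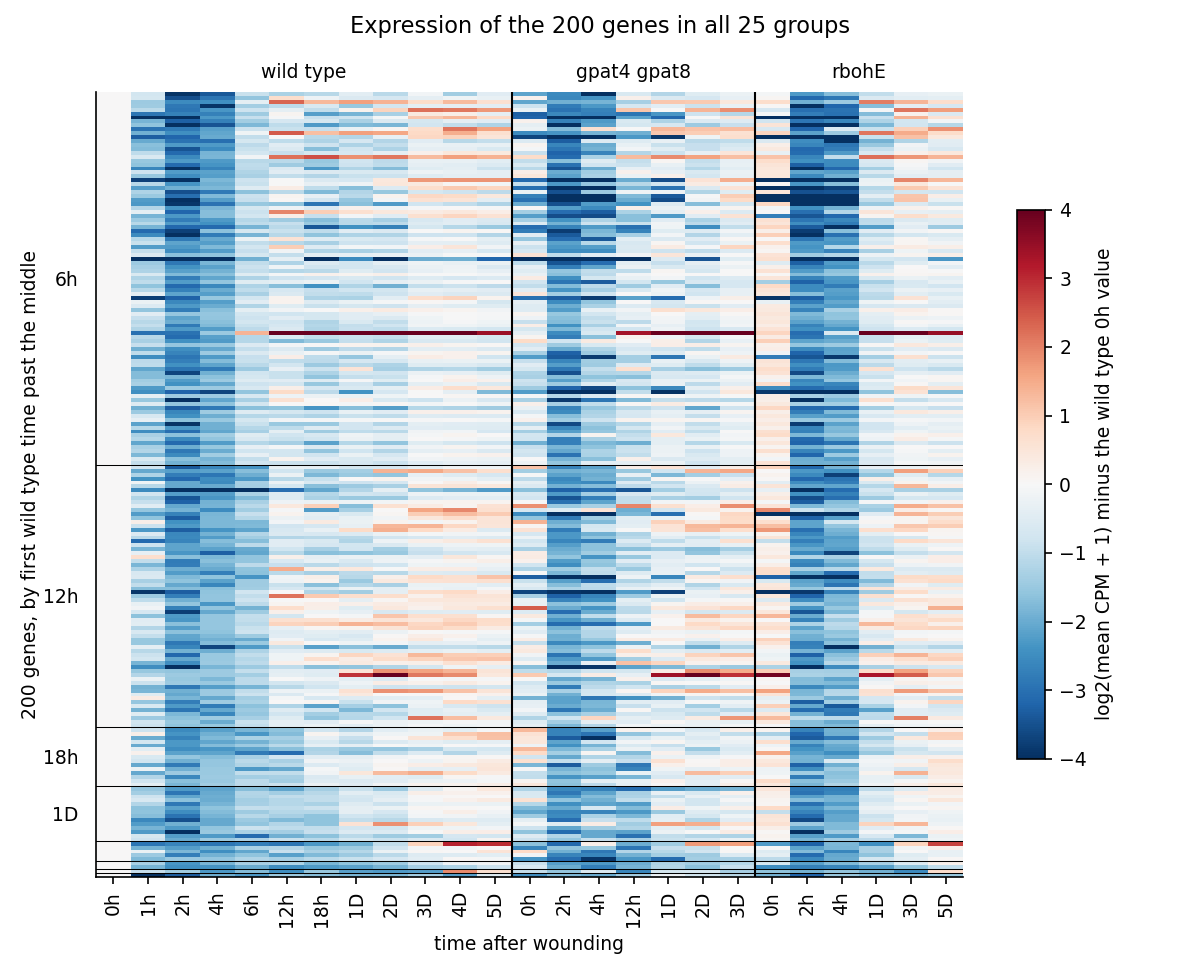
Rows are the 200 genes ordered by the first WT time at which each was past the middle between its low and its recovered level, columns are the 25 groups, and colour is log2(mean CPM + 1) minus the WT 0h value. The columns at 2h and 4h are low in WT and rbohE, and 95 genes at the top are past the middle in WT by 6h.

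Recovery time was read as the first WT time after 4h at which a gene was past 0.5 of the way from its higher early level to the lower of its 0h and 5D levels. That time was 6h for 95 genes, 12h for 67, 18h for 15, 1D for 14, 2D for 5, 3D for 2 and 4D for 1. It marks a first crossing, and some genes fell back afterwards. By 12h 162 genes had been past the middle and by 1D 191, while 152 were past it at 12h itself, 133 at 18h and 164 at 1D. With the level set at 0.25 or 0.75 of the way, 148 or 31 genes were past it by 6h, so the count at 6h depends on the level. The highest scores among the 6h genes were those of RABE1b, AT1G70250 and AT3G22235, and among the 12h genes those of CYP71B24, AT2G47010 and FADA, a plastid lipid desaturase. AT5G45310, AT4G27300 and the linker histone gene HIS1-3 led the 18h genes, and the MYB-like gene RL3, AT4G12917 and FDM2, a gene of RNA-directed DNA methylation, the 1D genes. The slowest were AT4G16260, AT5G66052 and the copper transporter gene COPT2 at 2D, the heat shock factor gene HSFA7A and AT1G67105 at 3D, AACT1, an acyltransferase gene, at 4D, and AT1G05562, which was not past the middle by 4D.

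NdhM encodes a subunit of the chloroplast NDH complex, which carries electrons around photosystem I. Its WT libraries read 137, 131 and 168 CPM at 0h, 6.16, 5.14 and 6.17 at 2h, 11.1, 12.2 and 14.3 at 4h and 64.4, 53.7 and 65.9 at 5D. Both early groups lay below both outer groups, and the 5D libraries stood below the 0h libraries.

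PRK encodes phosphoribulokinase, which makes the CO2 acceptor of the Calvin cycle. Its WT libraries read 1135, 1133 and 1498 CPM at 0h, 277, 252 and 276 at 2h, 174, 186 and 204 at 4h and 879, 753 and 858 at 5D. The lowest PRK values came at 4h and not at 2h.

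ANTR2, whose promoter is shown above, read 139, 129 and 152 CPM in WT at 0h, 30.6, 27.8 and 30.9 at 2h, 24.1, 32.6 and 32 at 4h and 123, 114 and 112 at 5D. AT2G47010 read 8.17, 8.23 and 5.17 CPM at 0h, 0.785, 0.432 and 1.06 at 2h and 22.7, 23.1 and 20.9 at 3D. Both were low in each early library, and AT2G47010 went on to a 3D level above its 0h level.

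AT1G28400 overshot most visibly. Its WT libraries read 33.8, 25 and 29.6 CPM at 0h, 2.46, 3.98 and 2.09 at 1h, 770.0, 656 and 654 at 12h, 1365, 1462 and 1396 at 2D and 308, 349 and 324 at 5D. GASA6 read 0.474, 0.654 and 4.12 CPM at 0h, 0 in each library at 2h and 4h, 79.5, 73.1 and 68.7 at 2D and 3.14, 2.85 and 2.17 at 5D. In both genes the 2D libraries lay above the 0h libraries without overlap.

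The WT libraries at 1h, 6h, 12h and 18h and on days 1 to 4 played no part in the choice of the genes. The later of these times were therefore tested against 1h. A gene was called where the adjusted p of edgeR's quasi-likelihood test (Benjamini-Hochberg) was under 0.05 and the log2 fold change at least 1 in size. Of the 200 genes, 87 were higher at 4D than at 1h and 1 was lower, against 19.1% and 17.4% of the 23475 genes tested. At 3D 83 were higher and 7 lower, against 19.0% and 16.8%. At 6h the counts were 24 higher and 33 lower, against 17.2% and 16.5%. The median log2 fold change at 6h was -0.15 with the TMM scaling of the fit, while the CPM medians above are 4.38 at 1h and 4.51 at 6h, so the sign of this small difference depends on the scaling. Between these, the 12h libraries had 54 higher (17.2% of all genes), 18h had 43 (15.5%), 1D had 54 (18.6%) and 2D had 58 (17.5%). The genes called lower numbered 13 (14.6% of all), 18 (15.5%), 11 (17.0%) and 11 (16.7%) in the same order. The median log2 fold change of the 200 was 0.37 for 12h and 0.33, 0.41, 0.75 and 0.81 for days 1 to 4, and 63 genes were called at no WT time after 1h, against 44.1% of all genes.

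At 4D the largest rises over 1h were those of AT1G28400 (log2 fold change 7.40 ± 0.32 SE, adjusted p 1.92e-27), AT4G16260 (7.35 ± 1.15, 1.60e-07) and AT5MAT, the malonyltransferase of anthocyanins (5.41 ± 0.57), by edgeR's quasi-likelihood test. The gene that was lower at 4D was FBA5, an aldolase (-1.79 ± 0.30, 5.18e-07). RVE2, a MYB-like relative of CCA1, was 6.99 higher at 12h than at 1h on the log2 scale and was among the 3 largest rises at 6h, 12h and 1D. At 6h FBA5 (-3.34), AT1G58225 (-3.29) and AT1G66940 (-3.24) were the furthest below 1h, and AT4G12830 (-1.97) was among the 3 furthest below at 18h. AT3G53190 (4.86) was among the 3 largest rises at 2D. At 12h AACT1 (-4.12), FBA5 (-3.61) and GRF3, a growth-regulating factor gene (-2.43), were the furthest below 1h.

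The rbohE libraries were not used to choose the genes, and the early drop was seen there as well. At 2h 188 of the 200 genes were lower than at 0h in rbohE and 0 were higher, against 23.7% and 21.6% of all genes tested. At 4h 182 were lower and 2 higher, against 17.9% and 19.2%. The median log2 fold change of the 200 was -2.69 at 2h and -2.34 at 4h, where the median of all genes was near 0. In 190 genes each rbohE 0h library lay above each 2h library, and in 184 above each 4h library. These counts cover the 200 genes only, with no share over all genes to set beside them.

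NdhM in rbohE read 205, 199 and 224 CPM at 0h, 7.63, 5.38 and 5.26 at 2h, 6.47, 7.93 and 6.19 at 4h and 73.9, 63.3 and 58.6 at 5D. The 0h and 2h libraries did not overlap, with a log2 fold change of -4.84 ± 0.20 (SE, adjusted p 1.26e-28, edgeR's quasi-likelihood test). PRK read 2048, 1984 and 2103 CPM at 0h, 350.0, 262 and 275 at 2h and 132, 179 and 130.0 at 4h. As in WT its 4h libraries were below its 2h libraries, and the fold changes from 0h were -2.54 ± 0.14 at 2h and -3.84 ± 0.14 at 4h (log2, SE).

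The largest falls at 2h in rbohE were those of GASA6 (log2 fold change -7.83 ± 0.92 SE, adjusted p 1.41e-10), AT2G36430 (-5.98 ± 0.23, 2.63e-30) and RVE2 (-5.67 ± 0.31, 2.42e-23), by edgeR's quasi-likelihood test. GASA6 read 41.3, 50.2 and 24.4 CPM at 0h and 0.224, 0 and 0.185 at 2h. At 4h GASA6 was at -8.36 ± 0.95 and RVE2 at -7.19 ± 0.34. CPSUFE, a sulfur acceptor of chloroplast iron-sulfur clusters, was listed at 0 in the 3 rbohE 4h libraries, but its reads cannot be told apart from those of an overlapping gene, as described at the end.

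The 12 genes not called at 2h in rbohE were RABE1b, CPSUFE, TT8, NUDT24, AT1G03940, AT1G03495, AT1G05562, AT1G67105, UGT78D2, AT4G07815, F3H and AACT1. Of these TT8, a bHLH regulator, F3H, flavanone hydroxylase, the flavonoid glucosyltransferase gene UGT78D2 and the acyltransferase genes AT1G03940 and AT1G03495 belong to anthocyanin and flavonol synthesis. The pair AT1G03940 and AT1G03495 was higher at 4h than at 0h, by 1.69 ± 0.26 and 1.7 ± 0.24 on the log2 scale (adjusted p 6.33e-08 and 1.67e-08, edgeR's quasi-likelihood test). Their transcripts are 96.7% identical over 1244 bases, so reads may have been split between them and their separate values are uncertain.

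Recovery in rbohE was also seen without the WT libraries. At 5D 186 genes were higher than at 2h and 0 were lower, against 22.0% and 19.0% of all genes, with a median log2 fold change of 2.33. In 168 genes (8.11% of all genes) the 2h and 4h levels were lower than 0h and the 5D level higher than 2h. Against 0h, 89 genes were still lower and 18 higher at 1D (11.7% and 12.8% of all genes), 46 lower and 25 higher at 3D (11.3% and 13.9%), and 59 lower and 25 higher at 5D (11.8% and 12.7%). The median log2 fold change from 0h was -0.83 at 1D, -0.49 at 3D and -0.51 at 5D. RVE2 (-3.31), GASA6 (-3.22) and MES18, a methylesterase gene (-2.63), stayed the furthest below 0h at 5D, and AT5MAT (7.15), DFR (5.91) and AT4G16260 (5.54 ± 1.0 SE) stood the furthest above it.

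Summed markers of leaf cell types, none of them among the 200 genes, moved over the same times. The 7 mesophyll markers, chiefly photosynthesis genes, summed to 16170 to 16930 CPM in rbohE at 0h, 5226 to 6914 at 2h, 2042 to 2586 at 4h and 4490 to 4859 at 5D. The 4 bundle sheath markers summed to 5557 to 6837, 1433 to 1863, 507 to 671.8 and 1668 to 2638 CPM, and the 8 epidermis markers to 1812 to 1873, 2120 to 2301, 2049 to 2266 and 1329 to 1393 CPM. In whole leaves, fewer cells of a type and less RNA per cell cannot be told apart, and the part of these shifts in the results was not tested.

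The gpat4 gpat8-labelled libraries showed a drop that was smaller against their own 0h. At 2h 158 of the 200 genes were lower than at 0h and 3 higher, against 18.3% and 17.8% of all genes. At 4h 103 were lower and 7 higher, against 12.8% and 16.0%. The median log2 fold change of the 200 was -1.88 at 2h and -1.14 at 4h. In 173 genes each 0h library lay above each 2h library, and in 144 above each 4h library, again counted among the 200 genes only. These 0h libraries are M libraries, and CCA1 stood at 260 ± 31.9 CPM (SD, n = 3) in them against 3.56 ± 0.932 in rbohE and 10.6 ± 2.27 in WT at 0h, with TOC1 at 13.6 ± 2.83 against 226 ± 7.14 and 144 ± 12.1. Clock time, whatever M marks, and genotype cannot be told apart at 0h.

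Against 3D, which holds no M library, 167 genes were lower at 2h and 0 higher, that is, 167 were higher at 3D than at 2h (19.0% of all genes, with 16.8% lower). The median log2 fold change from 2h to 3D was 1.99. At 4h 115 were lower than at 3D and 0 higher, against 12.7% and 13.5%, a comparison added after the data were seen. The fall at 2h was called in 152 genes in both lines (12.6% of all genes), and at both 2h and 4h in both lines in 86 (2.90%). In rbohE alone 179 genes were called lower at both times (13.8%) and in the gpat4 gpat8-labelled libraries 99 (7.88%).

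NdhM in the gpat4 gpat8-labelled libraries read 125, 106 and 106 CPM at 0h, 9.65, 9.87 and 5.13 at 2h, 24.7, 42.4 and 30.5 at 4h and 75.2, 66.4 and 86.3 at 3D. The 2h libraries lay in or near the range of those of rbohE, and the 4h libraries lay above the 2h libraries, which in rbohE they did not. The log2 fold change from 0h was -3.62 ± 0.19 at 2h and -1.75 ± 0.18 at 4h (SE). THIC, the thiamine pyrimidine synthase, read 354, 343 and 255 CPM at 0h, 106, 126 and 105 at 2h, 394, 464 and 399 at 4h, 175, 133 and 156 at 12h and 1327, 1391 and 1197 at 1D. THIC was above its own 0h libraries at 4h and below them at 12h. The WT 0h libraries, which helped to choose THIC, read 1077, 1121 and 1205 CPM.

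By later times the gpat4 gpat8-labelled libraries showed counts on both sides of 0h. At 12h 13 genes were higher and 32 lower (9.60% and 6.90% of all genes), and at 1D 25 and 16 (12.0% and 8.34%). At 2D 42 were higher and 47 lower (15.0% and 12.9%), and at 3D 47 and 23 (13.5% and 11.2%). MYB111 led the rises at 2D and 3D (log2 fold changes of 5.59 and 5.22), with AT1G28400 at 5.48 and 5.02. In these libraries MYB111 was near 0 CPM at 0h, as given below, so the size of its rises is uncertain. AT2G29340 had the largest fall at both times (-3.16 and -2.20).

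**Figure D2:**
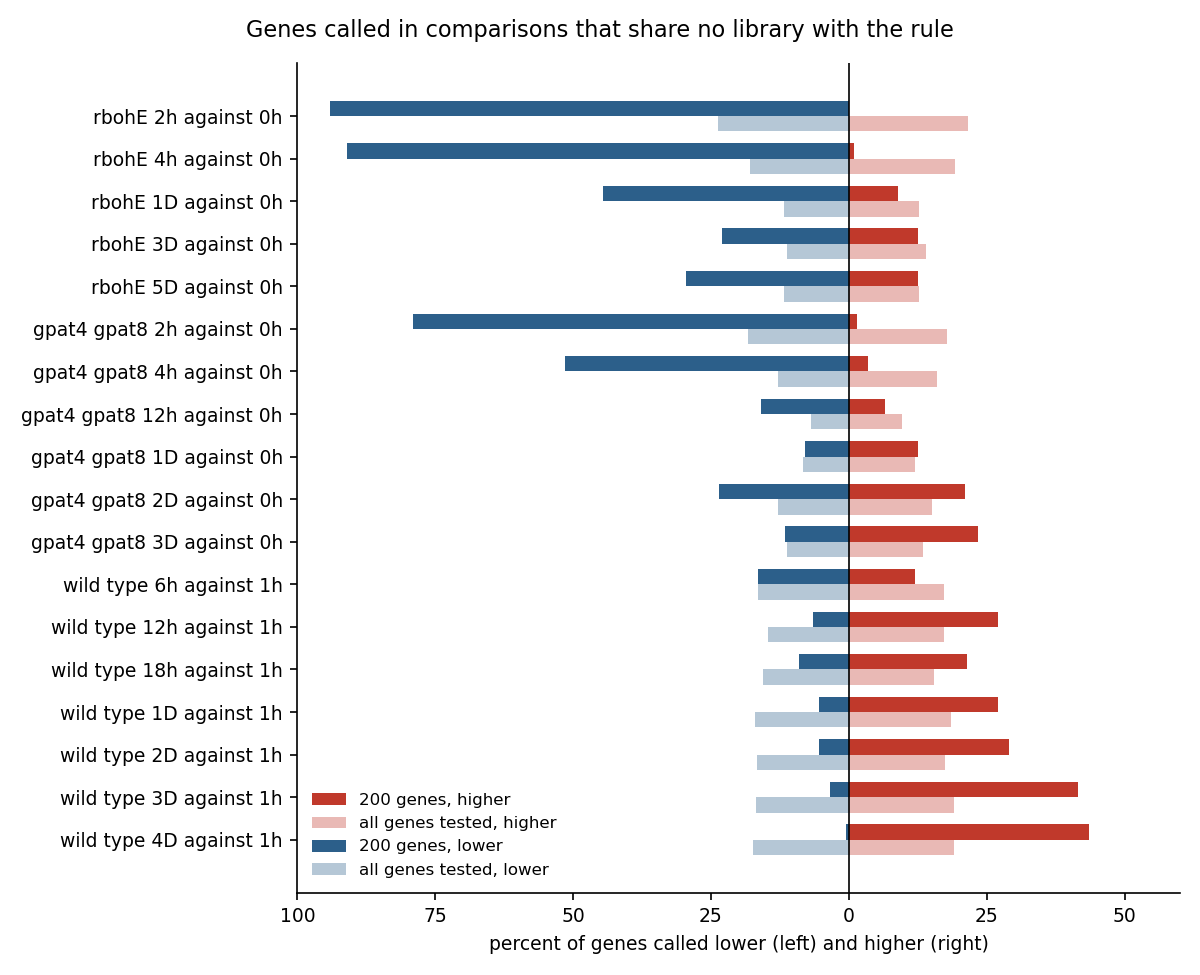
Bars give the percent of the 200 genes (dark) and of all 23475 genes tested (light) that were called lower (to the left) or higher (to the right) in each of 18 comparisons that share no library with the choice of the genes. The dark bars reach furthest for rbohE at 2h and 4h against 0h, with 188 and 182 genes lower.

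Only 3 genes were higher at 2h than at 0h in the gpat4 gpat8-labelled libraries. They were MYB111 (log2 fold change 3.3 ± 0.59 SE, adjusted p 1.81e-06), AT5G66052 (1.22 ± 0.14, 3.78e-11) and RVE2 (1.21 ± 0.31, 4.70e-04), by edgeR's quasi-likelihood test. MYB111 read 0, 0.146 and 0.083 CPM at 0h and 0.463, 0.933 and 0.785 at 2h there, against 8.75, 10.0 and 8.83 at 0h and 0.529, 0.569 and 0.504 at 2h in rbohE. The lines overlapped at 2h and did not at 0h. RVE2 did the same, at 1.26, 0.825 and 0.847 CPM at 0h and 2.28, 2.29 and 1.505 at 2h in the gpat4 gpat8-labelled libraries, and 95.8, 81.4 and 98.3 at 0h and 1.55, 1.34 and 1.63 at 2h in rbohE.

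RVE2 also swung with time in WT. It read 54.3, 57.2 and 63.5 CPM at 0h, 0.249, 0.420 and 0.187 at 1h, 12.3, 16.2 and 15.2 at 6h, 41.1, 43.6 and 50.3 at 12h, 0.440, 0.785 and 0.757 at 18h and 6.26, 10.6 and 10.9 at 1D. The 18h libraries were as low as those at 2h (0.853, 1.53 and 1.24 CPM), long after most of the 200 genes had recovered. CCA1 also moved over these times in WT, from 133 ± 17 CPM at 1h and 67.5 ± 2.27 at 2h to 6.45 ± 0.771 at 4h, and it was up again at 73.7 ± 3.16 CPM by 12h (SD, n = 3). The part of the clock in the drop was not tested, and no uncut leaf of matching time gives a value that bears on it.

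The change from 0h was compared between the lines by an interaction term. For the change to 2h, 107 of the 200 genes differed, 90 with a lower and 17 with a higher change in rbohE, against 12.0% and 10.6% of all genes (22.6% in either direction). For the change to 4h, 140 differed, 114 lower and 26 higher, against 16.5% and 13.6% (30.1% in either direction). With 3D in place of 0h, which leaves out the M libraries, 15 genes differed at 2h, 14 lower and 1 higher in rbohE (1.38% and 0.984% of all genes), and 96 at 4h, 77 lower and 19 higher (8.15% and 5.18%). The count at 2h thus depended on the reference, and that at 4h stayed well above the share in all genes with both.

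Levels were also compared at each shared time. At 0h 63 genes were higher and 17 lower in rbohE than in the gpat4 gpat8-labelled libraries (9.91% and 11.3% of all genes). The 2h counts were 5 higher and 12 lower (0.754% and 1.76%), and those of 4h 23 and 73 (5.24% and 9.15%). For 1D they were 22 and 20 (3.54% and 6.77%) and for 3D 3 and 1 (0.456% and 1.61%). At 2h TT8 (log2 difference 2.11), AT5G10760 (1.92) and NUDT24 (1.53) were the most raised in rbohE, and PR4 (-1.88), AT1G67105 (-1.61) and AT2G41178 (-1.40) the most lowered. At 4h the median log2 difference of the 200 was -0.69. MYB111 (6.70 ± 0.55 SE, adjusted p 1.42e-15), RVE2 (6.46 ± 0.33, 6.87e-24) and MES18 (4.22) were the most raised in rbohE at 0h, by edgeR's quasi-likelihood test. DFR (-3.26 ± 0.54, 9.44e-07), LDOX (-3.16) and AT1G67105 (-3.0) were the most lowered at 0h by the same test. The size for MYB111 rests on gpat4 gpat8-labelled libraries near 0 CPM and is uncertain.

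Against WT at the times the choice did not use, few of the 200 genes differed at 2D and 3D, in shares near those of all genes. In rbohE 1 gene was higher and 0 lower at 1D (0.609% and 0.222% of all genes), and 2 and 0 at 3D (0.405% and 0.0937%). The 1D gene was RVE2 (log2 difference 1.95 ± 0.26 SE, adjusted p 7.02e-07), and the 3D genes were RVE2 (1.28 ± 0.25, 2.38e-03) and CIPK5, a calcium-regulated kinase gene (1.2 ± 0.21, 6.89e-04), by edgeR's quasi-likelihood test. For the gpat4 gpat8-labelled libraries 15 genes were higher and 43 lower than WT at 12h (7.20% and 5.53%) and 28 and 21 at 1D (7.80% and 3.61%), both times with M libraries. At 2D 3 were higher and 1 lower (1.8% and 0.264%). These were AT4G16260 (log2 difference 2.92 ± 0.89 SE, adjusted p 3.95e-02), RVE2 (1.63 ± 0.29), the receptor kinase gene RKL1 (1.19 ± 0.29) and AT1G56120 (-1.08 ± 0.25), by edgeR's quasi-likelihood test. The counts were level at 3D, at 2 and 2 (2.52% and 0.639%). At 3D these were CIPK5 (1.61 ± 0.22, 1.97e-07), RVE2 (1.58 ± 0.25, 7.03e-06), MYB111 (-1.75 ± 0.38, 6.80e-04) and RL3 (-1.73 ± 0.42, 2.47e-03).

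CIPK5 read 35.4, 33.9 and 39.0 CPM in WT at 3D, 119, 99.5 and 102 in the gpat4 gpat8-labelled libraries and 75.9, 77.5 and 89.6 in rbohE. Both lines lay above WT in each library. No comparison of rbohE with WT at 0h, 2h, 4h or 5D was tested, because those WT libraries chose the genes.

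**Figure D3:**
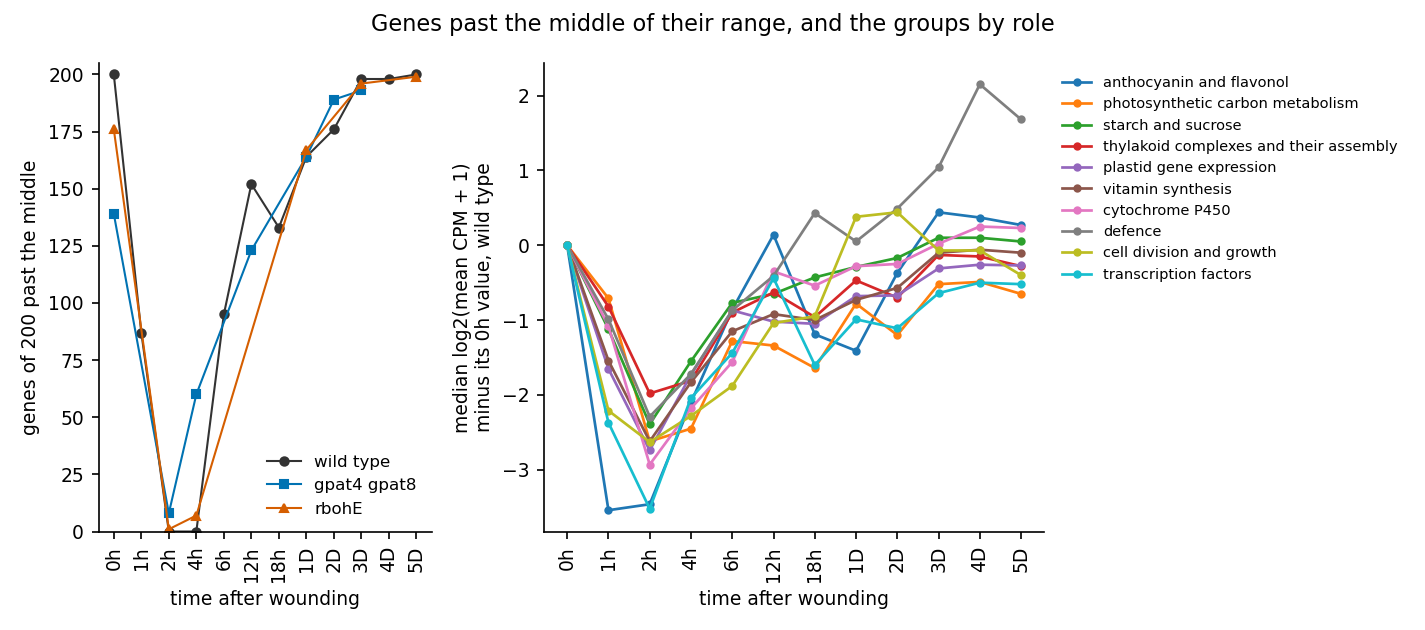
Left, the number of the 200 genes past the middle of their WT range in each group of the 3 genotypes; right, the WT median of each role group as log2(mean CPM + 1) minus its 0h value, by time. At 4h 60 genes were past the middle in the gpat4 gpat8-labelled libraries and 7 in rbohE, and by 3D 198, 193 and 196 were past it in WT, the gpat4 gpat8-labelled libraries and rbohE.

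By function, 92 of the 200 genes were put into 10 role groups after the list had been seen, so the counts that follow describe the groups and test nothing about them. The background percent for each comparison is the one given above. The examples within groups were also chosen with their values known.

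The thylakoid group has 15 genes, put together chiefly for assembly, repair and lipids of the photosynthetic membrane. Among them are NdhM, PnsL3, the photosystem II assembly genes PSB27, PSB28 and LPA2, the protease gene DEG5, the chlorophyll synthesis gene POR C, and FADA. The group also counts the protease gene FTSH12, whose place in the chloroplast was not examined. In rbohE 15 of 15 were lower at 2h and 15 at 4h, with median log2 fold changes of -2.75 and -3.0, and 15 were higher at 5D than at 2h. Within the gpat4 gpat8-labelled libraries 12 were lower at 2h and 5 at 4h, with medians of -1.41 and -0.47. FADA in rbohE read 31.5, 30.7 and 37.2 CPM at 0h, 5.11, 4.02 and 3.88 at 2h and 1.36, 1.48 and 1.15 at 4h. Its 4h libraries were the lowest, at a log2 fold change of -4.67 ± 0.17 from 0h (SE, adjusted p 1.80e-30, edgeR's quasi-likelihood test). In the other line FADA read 30.6, 29.8 and 29.5 CPM at 0h, 5.90, 7.38 and 4.91 at 2h and 6.21, 7.84 and 6.53 at 4h, with no further fall at 4h.

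The 10 genes put under photosynthetic carbon metabolism include PRK, the glycolate oxidase gene GOX2 and the aminotransferase gene AGT of photorespiration, and RBCS1B, a small subunit of Rubisco. The aldolase genes FBA1, FBA5 and FBA7 were also put there, and where in the cell each of these enzymes works was not examined. In rbohE 10 of 10 were lower at 2h and at 4h (medians -2.69 and -3.03), and 8 were higher at 5D than at 2h. In the gpat4 gpat8-labelled libraries 9 were lower at 2h and 4 at 4h. In WT 0 were higher and 1 lower at 4D than at 1h, with a median log2 fold change of -0.05, so that this group's 1h level was already near its 4D level. With 3D as the reference, 9 of the 10 were lower at 4h in rbohE than in the other line, with a median difference of -1.75, and so were 11 of the 15 thylakoid genes, with a median of -2.06.

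RBCS1B fell in rbohE by 3.07 ± 0.18 on the log2 scale at 2h (SE, adjusted p 1.33e-22, edgeR's quasi-likelihood test). For the gpat4 gpat8-labelled libraries its change was -0.60 ± 0.16, under the size asked for a call. The listed light-harvesting and photosystem genes, 21 in all with RBCS1B the only member, had 7 lower and 3 higher at 2h in rbohE (median -0.68) and 17 lower at 4h (median -1.94). At 5D 13 of these 21 were lower than at 2h and 1 was higher, where 186 of the 200 genes were higher.

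The starch and sucrose group holds ATSPS4F, a sucrose-phosphate synthase, PGM, and the debranching enzyme genes DBE1 and ISA1. All 4 were lower at 2h and at 4h in rbohE (medians -2.88 and -2.34) and higher at 5D than at 2h. ATSPS4F read 652, 559 and 765 CPM in rbohE at 0h and 52.3, 36.5 and 35.5 at 2h, and 328, 244 and 301 and then 50.9, 48.8 and 33 CPM in the gpat4 gpat8-labelled libraries. It fell in both lines, by 3.73 ± 0.17 and 2.57 ± 0.17 on the log2 scale (SE).

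PGM differed between the lines. In rbohE it read 287, 277 and 264 CPM at 0h and 32.9, 28.6 and 29.9 at 2h. Within the gpat4 gpat8-labelled libraries it read 48.9, 38.5 and 48.6 CPM at 0h, 35.4, 51.0 and 26.8 at 2h, 92.5, 110.1 and 99.5 at 4h and 202, 207 and 173 at 1D. The 2h levels overlapped between the lines and the 0h levels did not. At 4h PGM was above its 0h level in the gpat4 gpat8-labelled libraries, by 1.19 ± 0.14 on the log2 scale (SE, adjusted p 4.99e-11, edgeR's quasi-likelihood test).

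Plastid gene expression is represented by 9 genes, among them RABE1b, the elongation factor Ts gene emb2726, the elongation factor G gene SCO1, the RNA-processing gene RIF10 and the chaperonin gene Cpn60beta4. In rbohE 8 were lower at 2h and at 4h (medians -3.27 and -2.72) and 7 were higher at 5D than at 2h. In the gpat4 gpat8-labelled libraries 3 were lower at 2h, and at 4h 1 was lower and 1 higher. Cpn60beta4 changed by -3.67 ± 0.16 at 2h in rbohE (log2, SE, adjusted p 4.85e-28) and by -0.77 ± 0.15 (6.47e-06) in the other line, where it was not called for its size, by edgeR's quasi-likelihood test. The interaction term for the change to 2h called 8 of the 9 as lower in rbohE, but 1 of the 9 with 3D in place of the 0h M libraries. With that reference the difference of Cpn60beta4 was -0.57 ± 0.20 (adjusted p 0.059, edgeR's quasi-likelihood test).

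The 4 vitamin genes are THIC and THI1 of thiamine, BIO2 of biotin and PLR1 of vitamin B6. All 4 were lower at 2h in both lines and at 4h in rbohE, and 0 were called at 4h in the gpat4 gpat8-labelled libraries. THIC in rbohE read 1733, 1513 and 1750.1 CPM at 0h, 136, 113 and 109.6 at 2h and 1497, 1582 and 1579.6 at 5D. The fall to 2h was -3.55 ± 0.12 on the log2 scale (SE, adjusted p 7.33e-33) and the 5D level overlapped that at 0h. In WT THIC was 2.03 ± 0.11 higher at 4D than at 1h on the log2 scale (adjusted p 2.70e-23, edgeR's quasi-likelihood test).

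The 5 cytochrome P450 genes, CYP71B24, CYP71B3, CYP71B35, CYP71B36 and CYP705A19, were all lower at 2h in both lines. At 4h 5 were lower in rbohE and 4 in the gpat4 gpat8-labelled libraries, with medians of -2.30 and -2.77. CYP71B24 read 51.9, 55.4 and 52.9 CPM in rbohE at 0h and 3.303, 1.75 and 2.24 at 2h, and 61.9, 71.2 and 59.2 and then 5.06, 2.85 and 3.14 CPM in the gpat4 gpat8-labelled libraries. It fell by 4.19 ± 0.21 and 3.97 ± 0.21 on the log2 scale, and the interaction term was -0.23 ± 0.27 (SE, adjusted p 0.537, edgeR's quasi-likelihood test).

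Defence genes make up 11 of the 200, among them PR4 and PR5, which encode pathogenesis-related proteins, ACD6, a membrane protein of salicylic acid signalling, the near-identical pair PCC1 and AT3G22235, AT4G16260, and the receptor-like genes RLP34 and RLP36. In rbohE 11 were lower at 2h and 9 at 4h, and 9 were higher at 5D than at 2h (median 2.78). For the gpat4 gpat8-labelled libraries 7 were lower at 2h, and at 4h 6 were lower and 1 higher. In WT 6 were higher at 4D than at 1h (median 1.48). The transcripts of PCC1 and AT3G22235 are 99.4% identical over 344 bases, so their separate values are uncertain.

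ACD6 read 736, 877 and 757 CPM in rbohE at 0h and 42.2, 27.6 and 33.8 at 2h, a log2 fold change of -4.26 ± 0.33 (SE, adjusted p 2.79e-17, edgeR's quasi-likelihood test). In WT ACD6 stood at 634, 635 and 751 CPM at 0h, 32.3, 40.2 and 41.5 at 2h and 1123, 997 and 957 at 12h. It was thus above its 0h level at 12h in each WT library.

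PR4 recovered earlier and to higher levels. In rbohE it read 16.2, 13.3 and 16.4 CPM at 0h, 2.55, 1.21 and 1.58 at 2h, 12.5, 9.70 and 27 at 4h and 108, 73.8 and 82.3 at 5D. Its 4h level overlapped that at 0h, and its 5D level was 5.14 ± 0.54 above 2h on the log2 scale (SE, adjusted p 2.26e-12, edgeR's quasi-likelihood test). Its WT 0h libraries, which helped to choose it, scattered from 3.81 to 52.2 CPM.

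PR5 fell in rbohE by 2.64 ± 0.64 at 2h on the log2 scale (SE, adjusted p 2.27e-04), and its 5D level was 0.47 ± 0.61 from that at 2h (adjusted p 0.496, edgeR's quasi-likelihood test). It read 81.5, 68.3 and 44.7 CPM at 0h, 7.70, 12.2 and 6.37 at 2h and 18.6, 11.3 and 20.6 at 5D in rbohE. PR5 therefore fell there without a called recovery. The 18 listed salicylic acid and defence genes, with PR5 the only member, were mixed, with 5 higher and 5 lower at 2h in rbohE.

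The 12 genes of cell division and growth include MCM3 and ORC4, which load the DNA replication machinery, the histone gene HTB2, the expansin gene EXPA6, the auxin carrier gene LAX2, the auxin response genes IAA13 and AT4G38840, GRF3, BEE1 and GASA6. In rbohE 12 of 12 were lower at 2h and at 4h, with median log2 fold changes of -3.56 and -3.26, and 11 were higher at 5D than at 2h. Within the gpat4 gpat8-labelled libraries 11 were lower at 2h and 5 at 4h. In WT 8 were higher at 4D than at 1h (median 1.82).

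MCM3 read 12.9, 14.2 and 14.7 CPM in rbohE at 0h, 0.882, 0.643 and 0.420 at 2h and 10.7, 10.4 and 10.7 at 5D. The log2 fold changes were -4.16 ± 0.22 to 2h (SE, adjusted p 2.99e-24) and 3.54 ± 0.22 from 2h to 5D (2.63e-21), by edgeR's quasi-likelihood test. EXPA6 read 105, 112 and 86.7 CPM in rbohE at 0h, 2.89, 2.57 and 3.06 at 2h, 9.20, 7.18 and 6.76 at 4h and 32.4, 35.2 and 30.4 at 5D. Its 5D libraries were above the early ones and below those at 0h.

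The 20 listed cell cycle genes hold none of the 200 genes and were lower in 12 and higher in 1 at 2h in rbohE, then higher in 11 and lower in 2 at 5D against 2h. In the gpat4 gpat8-labelled libraries 5 were higher and 2 lower at 2h. The 4 markers of dividing cells summed to 6.087 to 6.339 CPM in rbohE at 0h, 1.833 to 2.517 at 2h and 6.5 to 9.542 at 5D. Their part in the result was not tested.

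The 9 transcription factor genes are NF-YA7, NF-YA10 and NF-YB3, subunits of the CCAAT-binding complex, RVE2, the zinc finger gene ZFP8, the homeobox gene HB25, HSFA7A, NAC036 and RL3. In rbohE 9 of 9 were lower at 2h and at 4h and higher at 5D than at 2h (medians -2.66, -1.95 and 2.98). For the gpat4 gpat8-labelled libraries 8 were lower at 2h and RVE2 was higher, and 6 were lower at 4h. NF-YB3 read 51.5, 49.8 and 55.3 CPM in rbohE at 0h, 2.28, 2.15 and 2.13 at 2h and 8.11, 10.2 and 7.14 at 4h. In the other line it read 33.6, 29 and 26.8 CPM at 0h, 2.98, 5.41 and 2.81 at 2h and 15.4, 26 and 17.9 at 4h. The drop at 2h was there in each library of both lines, and with 3D as the reference the 4h level was lower in rbohE by 1.77 ± 0.25 on the log2 scale (SE, adjusted p 5.73e-08, edgeR's quasi-likelihood test) than in the gpat4 gpat8-labelled libraries.

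NAC036 fell in both lines. It read 176, 238 and 280.1 CPM at 0h, 11.3, 8.78 and 9.88 at 2h and 6.91, 7.32 and 8.13 at 4h in the gpat4 gpat8-labelled libraries, and 50.03, 44.4 and 42.9, then 9.81, 6.17 and 6.24 and then 12.8, 14.7 and 15.1 CPM in rbohE. The interaction term for its change from 0h to 2h was 2.02 ± 0.40 (log2, SE, adjusted p 3.00e-05), and with 3D as the reference it was 0.32 ± 0.40 (adjusted p 0.67), by edgeR's quasi-likelihood test.

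The 13 anthocyanin and flavonol genes fell at 2h in part of the group in rbohE, and all later rose in each genotype. In rbohE the group median was 3.11 at 0h and 7.32 at 5D on the log2(mean CPM + 1) scale. In the gpat4 gpat8-labelled libraries it was 4.02 at 0h and 7.79 at 3D, so both medians ended above their own start. The WT 0h levels of the 13 genes helped to choose them. Values of the lines set beside WT 0h below are therefore a description, and no difference is drawn from them. The group comprises the enzyme genes F3H, DFR and LDOX, the sugar and acyl transferase genes UGT78D2, UF3GT, AT4G14090, AT5MAT, AT1G03940 and AT1G03495, GSTF12, which is needed to move the pigment into the vacuole, and the regulators TT8, TTG2 and MYB111. In rbohE 8 of 13 were lower at 2h (median log2 fold change -1.33), against 180 of the other 187 (median -2.75), and at 4h 4 were lower and 2 higher. From 2h to 5D in rbohE, and from 2h to 3D in the gpat4 gpat8-labelled libraries, 13 of 13 were higher, with medians of 5.07 and 7.22. In WT 13 of 13 were higher at 12h and at 4D than at 1h (medians 2.98 and 3.07).

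DFR in WT read 675, 423 and 362 CPM at 0h, 195, 169.7 and 157 at 1h, 90.4, 36.3 and 51.7 at 2h, 103, 186 and 138 at 4h and 908, 804 and 887 at 3D. In rbohE it read 4.84, 4.94 and 15.1 CPM at 0h, 2.65, 1.93 and 2.91 at 2h, 3.53, 15.5 and 7.09 at 4h, 375, 402 and 344 at 1D and 981, 1136 and 1026 at 3D. The 0h values of WT and rbohE are set side by side only as a description. At 3D, a time not used in the choice, the rbohE libraries lay above those of WT, but DFR was not called there. Its log2 difference was 0.31 ± 0.49 (SE, adjusted p 0.792, edgeR's quasi-likelihood test).

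Within the gpat4 gpat8-labelled libraries DFR read 8.96, 29 and 182 CPM at 0h, 0.149, 1.42 and 0.720 at 2h, 0.304, 0 and 0.048 at 4h and 946, 959 and 962 at 3D. The 0h replicates differed more than 10-fold, as did those of LDOX, AT5MAT, UF3GT and NUDT24, a nudix hydrolase gene. The 3D libraries were within a narrow range.

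LDOX, the anthocyanidin synthase, read 472, 301 and 272 CPM in WT at 0h, 24.5, 10.3 and 14.3 at 2h and 209.9, 290.4 and 276 at 5D. In rbohE it read 3.42, 4.32 and 7.91 CPM at 0h, 0.962, 0.533 and 0.992 at 2h and 982, 708 and 639 at 3D. In the gpat4 gpat8-labelled libraries it read 4.05, 22.2 and 103 CPM at 0h, 0.248, 0.575 and 0.262 at 2h, 0 in each library at 4h and 598, 605 and 585 at 3D. Within each line the 2h libraries lay below the 0h libraries without overlap.

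At 4h in the gpat4 gpat8-labelled libraries LDOX, AT5MAT, NUDT24 and TT8 were at or under 3 fragments in each library. Against 3 fragments per library, LDOX was at least 4330-fold, AT5MAT at least 1410-fold, NUDT24 at least 1330-fold and TT8 at least 337-fold lower than at 3D. Against the scattered 0h libraries the bound for LDOX was 312-fold, and 95.3 to 454-fold when 1 library at 0h was left out. In rbohE at 4h LDOX was at least 28.1-fold higher than in the gpat4 gpat8-labelled libraries, and 16.1 to 37.1-fold when 1 rbohE library was left out, and NUDT24 at least 42.8-fold, and 28.6 to 50.2-fold. TT8 itself read 0.374, 1.37 and 0.872 CPM at 0h, 0.994, 1.16 and 0.857 at 2h and 61.1, 69.8 and 64.5 at 3D in rbohE, against 44.9, 26.4 and 22.8 at 0h and 12.8, 3.74 and 6.17 at 2h in WT. In rbohE TT8 was already at its low level at 0h, and the change to 2h was 0.47 ± 0.43 (log2, SE, adjusted p 0.334, edgeR's quasi-likelihood test).

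**Figure D4:**
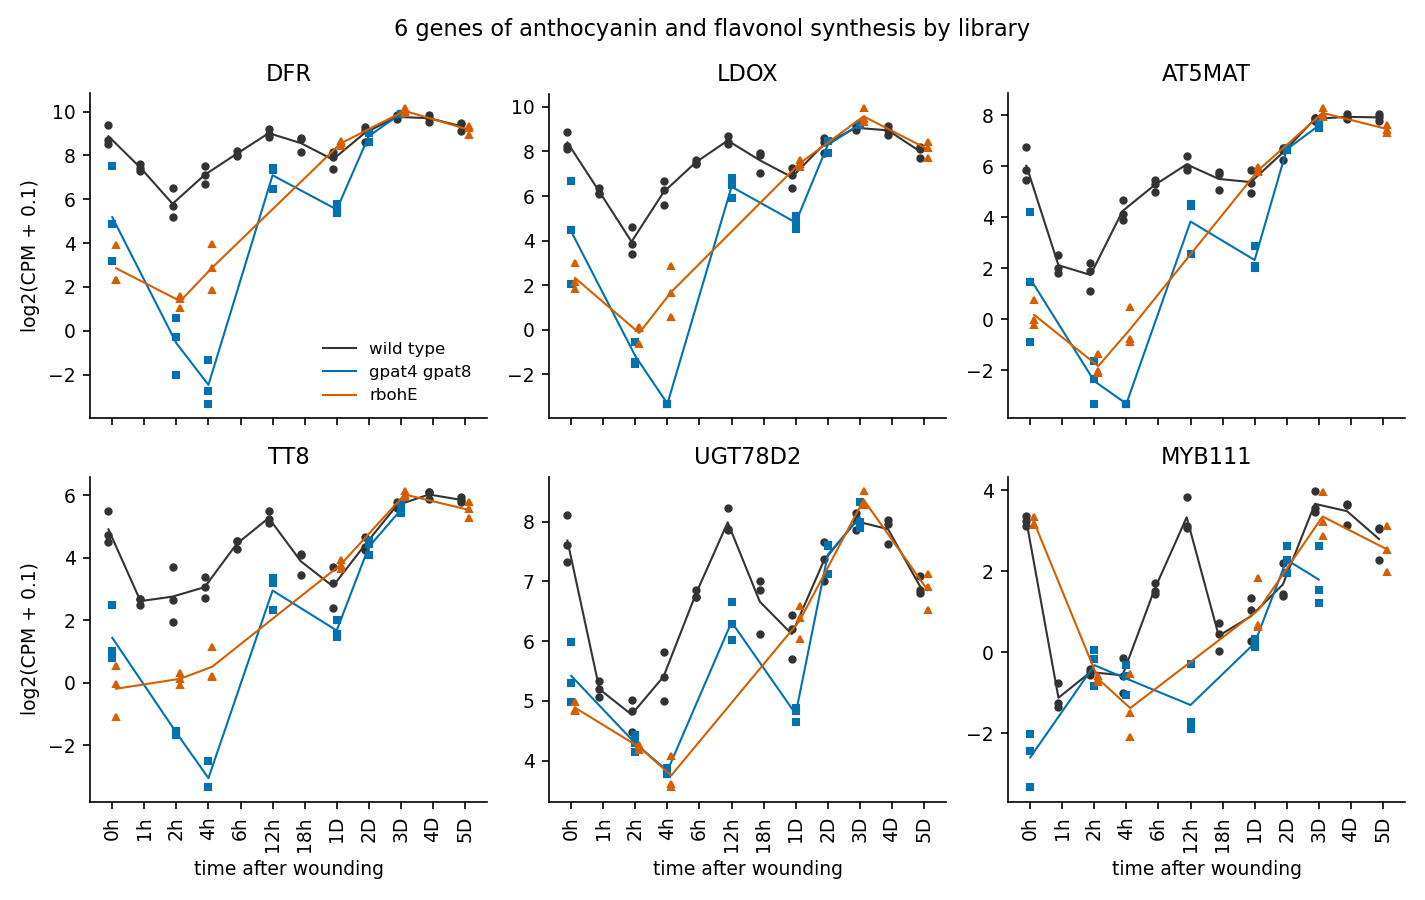
Each point is 1 library and each line joins group means, on the scale log2(CPM + 0.1), for 6 genes of anthocyanin and flavonol synthesis in the 3 genotypes by time after cutting. DFR, LDOX, AT5MAT, TT8 and UGT78D2 are drawn below WT at 0h in rbohE and the gpat4 gpat8-labelled libraries, and near the WT levels at 3D. MYB111 starts low only in the gpat4 gpat8-labelled libraries. WT 0h helped to choose these genes, so the 0h positions are a description only.

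UF3GT, whose promoter with 2 G-boxes is shown above, read 283, 179 and 158 CPM in WT at 0h and 31.6, 12.0 and 23.1 at 2h. In rbohE it read 5.14, 4.71 and 6.78 CPM at 0h, 1.40, 1.75 and 2.13 at 2h and 513, 476 and 426 at 3D. UGT78D2 read 278, 195 and 161 CPM in WT at 0h and 28.3, 28.7 and 31.4 in rbohE at 0h, with 18.8, 18.0 and 19.1 at 2h in rbohE. The WT 0h values helped to choose both genes, so no difference at 0h is drawn. The change of UGT78D2 to 2h in rbohE was -0.41 ± 0.22 (log2, SE, adjusted p 0.0877), and that of UF3GT -1.41 ± 0.47 (6.24e-03), by edgeR's quasi-likelihood test.

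By 1D the lines parted again, with AT5MAT (log2 difference 3.41 ± 0.52 SE), UF3GT (2.94) and DFR (2.90) the most raised in rbohE over the gpat4 gpat8-labelled libraries, whose 1D libraries are M libraries. DFR read 41.1, 43.4 and 55.3 CPM there at 1D. At 3D, with no M library, the 3 most raised in rbohE were RL3 (1.7), MYB111 (1.53) and BEE1 (1.34), and AACT1 was lower (-3.88). The anthocyanin enzyme genes were not among those called at 3D. Of the 17 listed flavonoid genes tested, 9 of them among the 200, 9 were lower and 3 higher at 2h in rbohE and 10 higher and 2 lower at 5D against 2h.

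Other listed pathways, with none of their genes among the 200, took other courses. Of 29 jasmonate genes 19 were higher and 0 lower at 2h in rbohE (median log2 fold change 3.44), and 1 was higher and 22 lower at 5D than at 2h. Of 16 suberin genes 6 were higher and 1 lower at 2h in rbohE (median 0.16), 5 higher and 6 lower at 2h in the gpat4 gpat8-labelled libraries (median -0.47), and 13 higher and 3 lower at 5D than at 2h in rbohE (median 7.24). Of 11 morning-phased clock genes 9 were higher at 2h in rbohE (median 3.29), whereas in the gpat4 gpat8-labelled libraries 0 were higher and 7 lower. The morning genes thus changed in opposite directions in the lines from 0h to 2h.

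Some values are uncertain because genes overlap. Of the 200 genes 68 have an exon that overlaps an exon of another gene, 61 of them a gene on the opposite strand, and whether the counting used strand is not given. RABE1b, with the highest score, had replicates more than 10-fold apart in 10 of 25 groups, and CPSUFE in 7 and AT1G05562 in 6. RABE1b shares 1758 bases with AT4G20362 on the opposite strand. In rbohE at 0h RABE1b ranged from 34.69 to 998.7 CPM and AT4G20362 from 300.6 to 1314 CPM, while their sum was 1298 to 1348 CPM. CPSUFE shares 1444 bases with UKL4, and in WT at 12h it ranged from 0 to 16.46 CPM while the sum with UKL4 was 57.79 to 61.24 CPM. The reads of each pair cannot be told apart in these counts, and the separate values of RABE1b, CPSUFE and AT1G05562, including their scores and recovery times, are uncertain.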

How the data were processed

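Per the file headers, the deposited table gives estimated counts per gene for 75 libraries, and per the submitters' processing notes the tools included Trimmomatic 0.39, HISAT2 2.2.1, StringTie 1.3.4 and edgeR 3.19 with TAIR10, with no role or order given. The deposited estimated counts are whole numbers that step by about 2.60 per fragment, so 3 fragments, the number a count of 0 allows, are 7.8 deposited counts, which covers counting error only. No further rounding was needed, and 0 columns were left unused. Total RNA was extracted with a column kit and made into stranded poly(A) libraries, per the labels' protocols.

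The 200 genes, the gene lists and the tests were chosen with earlier results of these data known. Named genes were taken from the 20 highest scores, genes at the boundary of the choice, genes in the fixed lists, the 3 largest called changes in each direction of each comparison, genes rising at 2h in a line, the highest scores of each recovery time and the clock and label genes. Role groups and their examples were chosen after the values were seen.

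CPM is the estimated count divided by the library total. Genes were filtered with edgeR's filterByExpr (minimum count 10, minimum total 15), which kept 23475 of 32833 and all 200. One model of 25 groups was fitted to all 75 libraries with edgeR 4.0.16 (TMM scaling, robust quasi-likelihood test, prior count 0.125) in R 4.3.3 with limma 3.58.1, and 36 contrasts were tested with Benjamini-Hochberg adjustment over all genes. A standard error is the log2 fold change divided by the square root of F. The fit was tested on simulated data. Alternatives were DESeq2 1.42.0, other scalings and filters, a replicate block, other forms of the choice and leaving out each replicate. Promoters came from RefSeq TAIR10.1 and near-identical transcripts from blastn 2.17.0+. Tables and figures used Python 3.11.15, pandas 2.3.3, numpy 2.4.6 and matplotlib 3.10.9.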

Additional observations from a re-analysis of the deposited data

Results flagged for a closer look

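The change from 0h to 2h differed between rbohE and the gpat4 gpat8-labelled libraries in 107 of the 200 genes by the interaction term of edgeR's quasi-likelihood test, against 22.6% of all genes tested. The largest differences were those of DFR (4.97 ± 0.84, adjusted p 1.86e-06), LDOX (4.36 ± 0.94, 1.17e-04) and TT8 (4.04 ± 0.66, 9.54e-07), higher in rbohE, and MYB111 (-7.14 ± 0.71, 2.62e-12), RVE2 (-6.88 ± 0.43, 9.01e-20) and GASA6 (-5.23 ± 1.19, 2.75e-04), lower in rbohE, as differences of log2 fold changes ± SE with 3 libraries in each group. The 0h libraries of the gpat4 gpat8-labelled line are M libraries with CCA1 at 260 CPM against 3.56 CPM in rbohE. MYB111 was near 0 CPM in these 0h libraries, so the size of its difference is uncertain.

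For the change from 0h to 4h 140 genes differed, against 30.1% of all genes tested. RVE2 (-8.06 ± 0.45, adjusted p 8.20e-22) and MYB111 (-7.62 ± 0.74, 4.01e-13) had the largest lower values in rbohE, by edgeR's quasi-likelihood test. This ranking leaves out genes at or under 3 fragments in each library of one of these groups. MYB111 was near 0 CPM at 0h in the gpat4 gpat8-labelled libraries, so the size of its value is uncertain.

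With 3D in place of 0h, 15 genes differed at 2h and 96 at 4h. At 2h the differences were then 1.58 ± 0.82 for DFR (adjusted p 0.211), 0.82 for LDOX (0.631), 1.62 for TT8 (0.0809), -0.13 for RVE2 (0.894), -1.97 ± 0.58 for MYB111 (2.03e-02) and -1.77 for GASA6 (0.376), by edgeR's quasi-likelihood test. MYB111 passed the threshold with both references.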

How the results depend on the processing

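Of 254 alternative values, 244 stayed within 1.5 times the reported count. The choice of the 200 genes kept 111 of them with a pseudocount of 0.1 CPM, 145 with 5 CPM, 163 with TMM scaling, 150 with the lowest and highest replicates in place of means, and 179 to 194 when 1 WT library was left out. With 3D in place of 0h, an alternative chosen after seeing the data, 15 genes in place of 107 differed between the lines at 2h. For rbohE against the gpat4 gpat8-labelled libraries at 2h, 17 genes were called, 3 with only these groups in the fit, and 7 to 22 when 1 library was left out (7 without gpat4 gpat8-labelled replicate 2, 11 without rbohE replicate 2). Against WT at 3D, the gpat4 gpat8-labelled libraries had 4 genes called, 4 to 8 when 1 library was left out (7 without gpat4 gpat8-labelled replicate 2, 8 without replicate 3), and 4.0% of the 100 highest scores. For rbohE at 3D against WT 2 genes were called, 1 with only these groups in the fit, 2 to 2 when 1 library was left out, and 2.0% of the 100 highest scores. The cause of these moves was not tested.

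When 1 library was left out, with the genes tested and the trend of the spread kept, the counts were 185 to 189 for rbohE at 2h, 180 to 183 at 4h and 183 to 188 for 5D against 2h. In the gpat4 gpat8-labelled libraries they were 152 to 166 at 2h, 101 to 112 at 4h and 161 to 179 for 3D against 2h. They were 51 to 55 for WT 1D and 84 to 89 for WT 4D against 1h, 76 to 83 and 87 to 101 for rbohE against the gpat4 gpat8-labelled libraries at 0h and 4h, and 88 to 114 and 134 to 144 for the interactions at 2h and 4h.

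Replicate numbers recur across groups, but the correlations of same-numbered libraries ran from -0.186 to 0.167, and in 0 of 32 comparisons were they all over 0.1, so the numbers were not taken to pair the libraries. With the replicate number as a block, 188 genes were lower at 2h in rbohE, 159 in the gpat4 gpat8-labelled libraries, and 106 and 138 differed in the interactions at 2h and 4h.

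Size factors other than TMM (RLE or DESeq2) shifted the median of all genes by 0.11 (log2) for rbohE at 2h and by -0.10 to -0.17 for the WT comparisons with 1h. Without the filter, 43.3% in place of 54.1% of calls at WT 12h against 1h were higher. Genes near 0 CPM, such as LDOX and TT8 at 4h in the gpat4 gpat8-labelled libraries, give bounds and no fold change. With 3 libraries a group and no uncut leaves at later times, clock time and cutting cannot be told apart.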
